A study of Mus musculus with 2 samples.

Results

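The solute carrier genes described here are those with an Slc or Slco symbol, at least 1 protein-coding transcript, and a deposited gene level of at least 5 TPM (a length-corrected share of all transcripts) in each library. Of 385 solute carrier genes with a protein-coding transcript, 83 met this rule, against 4931 of the 21901 genes of any kind with such a transcript. The members were selected on their TPM, so their presence and their levels are a description of what the rule took. The symbols also take in 3 genes whose products are not carriers, namely the scaffold gene Slc9a3r1 (NHERF1) and the neighbour-named or partner-named genes Slc7a6os and Slc4a1ap, which leaves 80 carriers.

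The libraries came from nucleoplasmic RNA of bone-marrow-derived macrophages of strain C57BL/6J mice, which had received lipid A, the TLR4-activating part of bacterial lipopolysaccharide, at 100 ng/ml for 90 min. The labels name the fraction nucleoplasmic in one field and nuclear in another. Both libraries form 1 group, and no unstimulated or cytoplasmic library was analysed here. They are called biological replicates, with separate sample entries but the same donor entry, and whether they came from separate mice is not given, nor are sex and age. Replicate 1 began from 1 µg of RNA and replicate 2 from 500 ng, and the libraries held 22669533 and 14939143 estimated counts. The 8 macrophage markers all passed 5 TPM in each library, from Fcgr1 (15.7 and 11.6 TPM) to Lyz2 (916 and 1103 TPM). Of 16 markers of other cell types none reached 1 TPM, the highest being the neutrophil gene S100a8 at 0.64 and 0.84 TPM, while 6 were at a count of 0, among them Cd3d, Cd3e, Ly6g, Elane and Hba-a1. The second deposited quantification placed the T-cell gene Cd3d at 3.01 and 13.1 TPM.

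Solute carriers move nutrients, ions, metals and metabolites across membranes without splitting ATP themselves, either down a gradient or coupled to the gradient of another solute. Macrophages depend on them to recycle iron from engulfed red cells, to starve microbes of metals in the phagosome, to acidify and drain endosomes and lysosomes, and to supply amino acids and sugar after stimulation. In RNA from the nucleus the signal of a gene can include transcripts not yet fully spliced or exported. Levels are therefore not those of the cytoplasmic messenger RNA, and no protein or transport was measured. How far transcripts still being made enter this nucleoplasmic fraction was not measured either. In such bulk libraries, fewer cells that express a gene and less RNA per cell cannot be told apart.

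Sequences are shown first for iron handling. Slc40a1 encodes ferroportin, the known cellular iron exporter, and its messenger RNA carries an iron-responsive element, a stem with a six-base loop that iron regulatory proteins bind, as do the ferritin genes Fth1 and Ftl1. The elements are printed with the loop in capitals, each 29 bases from the 5′ UTR of the gene's leading transcript in the GENCODE M21 reference (mm10). They were not read from the libraries.
Slc40a1-201, chr1:45925465-45925493, minus strand: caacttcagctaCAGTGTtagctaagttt
Fth1-201, chr19:9982732-9982760, plus strand: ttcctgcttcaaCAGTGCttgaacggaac
Ftl1-201, chr7:45459779-45459807, minus strand: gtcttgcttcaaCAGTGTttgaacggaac

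The pattern searched was C, any 5 bases, the loop CAGTGN, and 5 bases that pair with the first 5 in reverse order (G-U pairs allowed), on the transcript strand only. It was found in 890 of 141767 annotated transcripts (0.628%), in 127 of the 4931 coding genes at 5 TPM (2.58%), and in 3 of the 83 members (3.61%). In Slc40a1 it lay at chr1:45925471-45925487, and the coding transcript that holds it, Slc40a1-201, took 90.7% of the gene's TPM in replicate 1 and 91.8% in replicate 2. It also lies in the retained-intron transcripts Slc40a1-202 (3.10% and 2.58%) and Slc40a1-208 (4.59% and 5.64%). The matches in the taurine transporter gene Slc6a6 (3′ UTR) and the UDP-N-acetylglucosamine transporter gene Slc35a3 (coding region) are matches of letters, not known elements. The pattern was not found in the annotated Slc11a2 transcripts, which says only that these letters with full pairing are not there.

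A second printed sequence shows the strain background of the phagosomal metal transporter gene Slc11a1 (Nramp1), which pumps iron and manganese out of the phagosome. The mm10 reference is itself C57BL/6J, a strain known to carry an aspartic acid in place of the glycine of resistant strains at a site within the membrane, which impairs the protein. The codon of that site, in capitals, lies in exon 6 of 15 at chr1:74380210-74380212 on the plus strand and reads GAC, aspartic acid, in the reference. It was not read from the libraries.
Slc11a1-201, chr1:74380198-74380227, plus strand: atcccgctgtggGACggtgtactgatcacc

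Slc11a1 stood at 39.1 TPM in replicate 1 and 41.8 TPM in replicate 2, a mean of 40.5 ± 1.92 TPM (SD, n = 2), which puts it among the 20 highest of the 83 genes. Its protein-coding transcript Slc11a1-201, which holds the printed codon, took 39.2% of the gene's TPM in replicate 1 and 64.7% in replicate 2. Retained-intron forms took 28.7% and 16.7%, and processed transcripts 31.7% and 18.6%.

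The members spread over all 9 substrate classes, and metal carriers were the class with the largest share past the minimum. The classes follow the symbol, so class counts and medians also take in the genes that encode no carrier. Slc7a6os falls among the amino acid and peptide carriers, and Slc9a3r1 and Slc4a1ap among the inorganic ion and pH carriers. Of 32 annotated metal ion carriers 15 were members (46.9%), and of 51 amino acid and peptide carriers 18 were (35.3%). The inorganic ion and pH carriers gave 16 of 59 (27.1%), the nucleoside and nucleotide sugar carriers 9 of 35 (25.7%) and the mitochondrial carrier family 12 of 47 (25.5%). The vitamin, choline and cofactor carriers gave 3 of 20 (15%), the monocarboxylate and carboxylate carriers 2 of 18 (11.1%) and the sugar carriers 3 of 30 (10%). The lipid, organic ion and other carriers, a class that holds the organic ion transporters of liver and kidney, gave 5 of 93 (5.38%). Over all solute carrier genes the share was 21.6%, beside 22.5% of all genes with a protein-coding transcript.

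**Figure D1:**
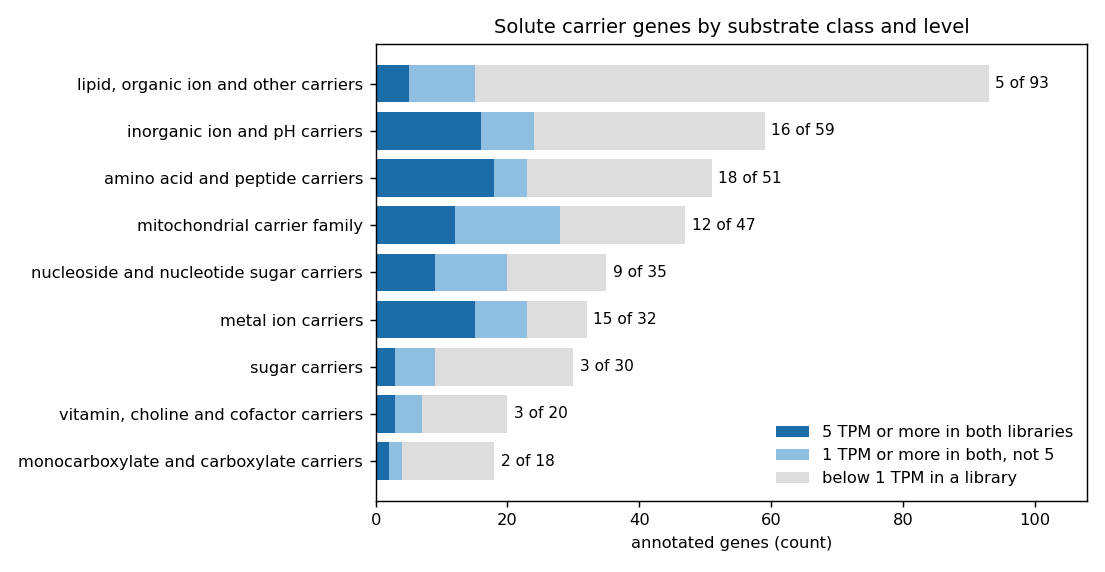
Number of annotated solute carrier genes in each substrate class (horizontal axis, count), divided into those at 5 TPM or more in both libraries, those at 1 but not 5 TPM in both, and the rest. The figures at the bar ends give members of annotated genes, from 5 of 93 lipid, organic ion and other carriers to 15 of 32 metal ion carriers.

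Below the minimum, 70 further solute carrier genes reached 1 TPM in each library, and 116 had a count of 0 in both. Of 20 genes at 5 TPM in a single library, 3 were so in replicate 1 and 17 in replicate 2. The members just inside the minimum were Slc12a9 (5.16 and 5.48 TPM in replicates 1 and 2), the zinc transporter gene Slc30a5 (5.40 and 7.58 TPM) and Slc4a1ap (5.58 and 12.4 TPM). Just outside it were Slc25a25 (4.99 and 6.65 TPM), the glucose transporter gene Slc2a1 (4.95 and 6.8 TPM) and Slc16a7 (5.60 and 4.89 TPM). Both sets overlap in level, so the edge of the group is not sharp.

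The members' median level was 17.9 ± 3.22 TPM, where the SD is that of the medians of the 2 libraries (16 TPM in replicate 1 and 20.6 TPM in replicate 2). The median of all 4931 coding genes at the same minimum was 16.5 ± 2.80 TPM (14.5 TPM in replicate 1 and 18.4 TPM in replicate 2). The members' median was thus slightly higher in each library. Both SDs hold the shift between the libraries that the 2 sets share, so they do not measure this difference, which was not tested. Mean levels ran from 5.32 TPM for Slc12a9 to 240 TPM for Slc25a37, and 3 genes passed 100 TPM in each library, while 62 passed 10 TPM. The 10 highest genes held 46.1% of the members' summed TPM in replicate 1 and 44.7% in replicate 2. Together the 83 genes took 1.11% and 1.04% of all estimated counts.

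**Figure D2:**
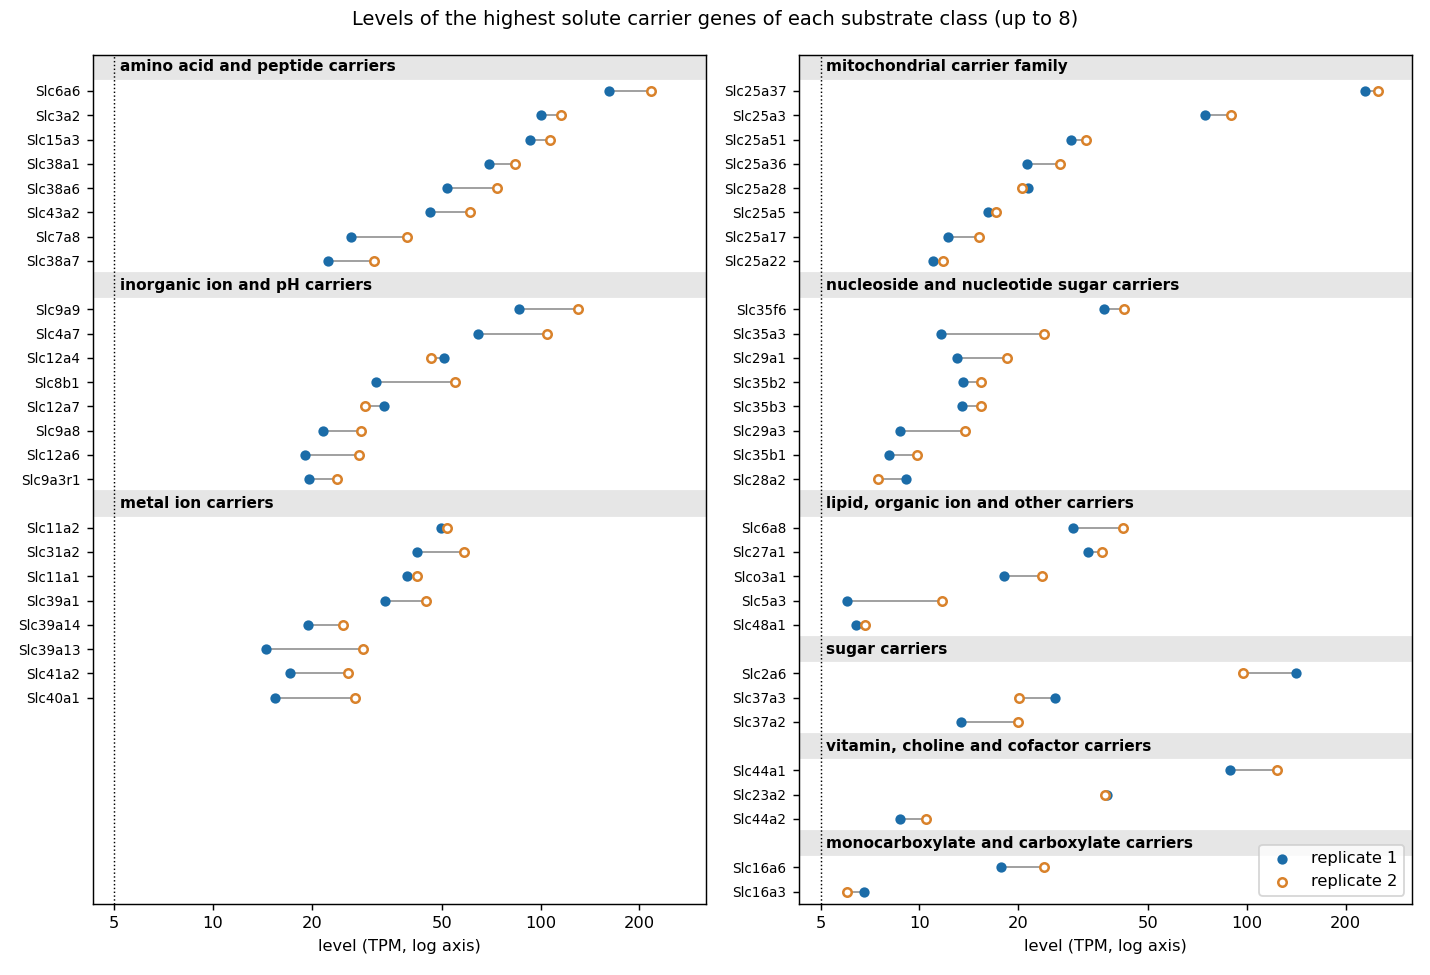
Level of the highest solute carrier genes of each class, up to 8 a class (TPM, log axis), in replicate 1 (filled) and replicate 2 (open), grouped by substrate class and ordered by mean level, with the minimum of 5 TPM as a dotted line. Slc25a37 lies at 229 and 252 TPM, Slc2a6 (141 and 97.4 TPM) and Slc12a4 (50.8 and 46.1 TPM) are among the genes whose replicate 1 value is the larger, and most open points lie to the right of the filled ones.

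Carriers of the mitochondrial family differed widely, with 1 gene far above its relatives. Slc25a37, which encodes mitoferrin-1, the importer of iron into mitochondria, had 229 TPM in replicate 1 and 252 TPM in replicate 2 (mean 240 ± 15.8 TPM) and stood above 97.9% of the 4931 coding genes. Its paralogue Slc25a28 (mitoferrin-2) had 21.5 and 20.6 TPM, and the phosphate carrier gene Slc25a3 had 74.7 and 89.4 TPM. The NAD carrier gene Slc25a51 followed at 28.99 and 32.29 TPM, and the ADP/ATP exchanger genes Slc25a5 and Slc25a4 at 16.7 ± 0.601 and 5.91 ± 0.361 TPM. The median over the 12 members of the family was 15.2 ± 1.35 TPM. Members for citrate (Slc25a1), dicarboxylates (Slc25a10), oxoglutarate (Slc25a11) and glutamate (Slc25a22) lay between 6.14 and 11.4 TPM.

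The metal carriers included importers, exporters and organelle transporters, at a median of 21.3 ± 6.00 TPM over 15 genes. Slc11a2 (DMT1), which moves iron from endosomes into the cytosol, had 49.6 and 51.6 TPM in replicates 1 and 2. Its relative Slc11a1 was at 40.5 ± 1.92 TPM, and the exporter gene Slc40a1 at 15.5 TPM in replicate 1 and 27.1 TPM in replicate 2. The copper transporter genes Slc31a2 (41.9 and 58.1 TPM) and Slc31a1 (10.8 and 14.3 TPM) are neighbours on chromosome 4 with 62315 bases between them, on the same strand. Slc31a1 encodes the high-affinity copper importer. The zinc importer family gave 5 members of 14, led by Slc39a1 (33.4 and 44.7 TPM) and Slc39a14 (19.6 and 24.9 TPM), whose product also carries iron. The Slc30 family, most of which moves zinc out of the cytosol, gave 4 of 10, led by Slc30a7 at 18.8 ± 3.10 TPM. The exporter gene Slc30a1 was under the minimum in replicate 1, at 4.67 TPM, and had 6.84 TPM in replicate 2. Of 14 other iron and zinc genes 10 passed 5 TPM in each library, led by Fth1 (497 and 448 TPM), Ftl1 (322 and 326 TPM) and the transferrin receptor gene Tfrc (70.0 and 120 TPM).

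Amino acid and peptide carriers were the largest class among the members, with a median of 21.5 ± 6.36 TPM over 18 genes, Slc7a6os included. The taurine transporter gene Slc6a6 was the second highest member, at 161 and 218 TPM in replicates 1 and 2. Slc3a2 encodes the heavy chain that carries a family of light-chain transporters to the cell surface, and had 101 and 116 TPM. Of the 6 light-chain genes known to pair with it, chosen for that pairing, Slc7a8 (26.34 and 38.96 TPM), the cystine importer gene Slc7a11 (13.0 and 20.6 TPM) and Slc7a7 (11.3 and 14.1 TPM) were members. Slc7a6 stood at 1.36 and 2.10 TPM, Slc7a5, the light chain known best from activated T cells, at 0.31 and 0.39 TPM, and Slc7a10 at a count of 0. The summed TPM of the 6 light-chain genes was 52.3 in replicate 1 and 76.1 in replicate 2, below that of the heavy-chain gene in both libraries.

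The endolysosomal transporter gene Slc15a3, which carries histidine and bacterial peptides, was at 92.5 and 107 TPM, and its relative Slc15a4 at 17.6 and 33.6 TPM. For Slc15a4 the counts were 1270 in replicate 1 and 713 in replicate 2, and the second quantification gave 16.3 and 21.5 TPM. Its processed transcript Slc15a4-211 took 18.2% of the gene's TPM in replicate 1 and 41.2% in replicate 2. The glutamine transporter gene Slc38a1 (69.4 and 83.4 TPM) was above its chromosome 15 neighbour Slc38a2 (12.5 and 15.5 TPM). Slc38a6 had 51.8 and 73.3 TPM, and Slc43a2, a carrier of large neutral amino acids, 45.9 and 60.7 TPM. Slc38a9, a lysosomal carrier that reports arginine to mTORC1, was at 14.5 ± 1.61 TPM, and the cationic amino acid transporter gene Slc7a2 at 9.16 and 11.3 TPM.

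Among the ion and pH carriers, 3 of the highest genes belong to intracellular or phagosomal pH control and cell volume. The endosomal sodium/proton exchanger gene Slc9a9 had 85.8 and 130 TPM, the bicarbonate transporter gene Slc4a7, needed for phagosome acidification, 64.3 and 104 TPM, and the potassium/chloride cotransporter gene Slc12a4 had 50.8 and 46.1 TPM. The phosphate importer gene Slc20a1 was at 17.03 ± 2.27 TPM. The class median was 21.7 ± 3.85 TPM over 16 genes, Slc9a3r1 and Slc4a1ap included.

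Only 1 of 12 annotated members of the facilitative glucose transporter family passed the minimum. That gene was Slc2a6 (GLUT6), a lysosomal member of the family, at 141 TPM in replicate 1 and 97.4 TPM in replicate 2. Slc2a1 was just under the minimum (4.95 and 6.8 TPM) and passed it in the second quantification (5.65 and 7.72 TPM). The sugar-phosphate exchanger gene Slc37a2 had 13.5 and 20.0 TPM, and Slc37a3 had 25.97 and 20.11 TPM. The lactate transporter gene Slc16a3 was low among the members, at 6.8 and 6 TPM, and Slc16a6 stood at 17.78 and 23.99 TPM.

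Of the remaining classes, the choline transporter gene Slc44a1 was the highest member, at 88.9 and 124 TPM, and the vitamin C transporter gene Slc23a2 had 37.48 and 37.01 TPM. Slc44a2 had 9.60 ± 1.24 TPM. The creatine transporter gene Slc6a8 (29.5 and 41.8 TPM), the fatty acid transport gene Slc27a1 (32.74 and 36.03 TPM) and the organic anion transporter gene Slco3a1 (18.1 and 23.7 TPM) led the lipid, organic ion and other carriers. Slc35f6 (36.61 and 42.04 TPM), Slc35a3 (11.7 and 24.1 TPM) and the nucleoside transporter gene Slc29a1 (13.1 and 18.5 TPM) led the nucleoside and nucleotide sugar carriers, and the lysosomal nucleoside transporter gene Slc29a3 had 8.76 and 13.8 TPM.

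The gene lists that follow were chosen with earlier results of these data known, so their counts are a description and not a test. Of all genes with a protein-coding transcript, 22.5% passed the minimum in both libraries. Of 24 solute carrier genes listed for a known role in macrophages, 17 were members. Slc1a5, Slc7a1, Slc16a1 and Slc46a3 were under the minimum in at least 1 library, as were Slc2a1, Slc30a1 and Slc7a5. Of 18 carriers typical of other tissues none was a member, and 13 had a count of 0 in both libraries. A count of 0 allows up to 3 counts. Of 17 carrier-like proteins without an Slc symbol 13 passed the minimum, led by the lysosomal gene Cln3 (259 and 273 TPM), Unc93b1 (106 and 118 TPM), which escorts nucleic-acid-sensing Toll-like receptors, and the cholesterol exporter gene Npc1 (45.6 and 69.6 TPM). Of 19 ATP-driven transporters 12 did, led by Abca1 (111 and 157 TPM), Atp2b1 (86.0 and 122 TPM) and Abcc5 (87.4 and 107 TPM). Both carrier chaperone genes did, Bsg at 18.6 and 28.4 TPM and Emb at 14.5 and 17.8 TPM.

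The 2 libraries were then compared gene by gene, to learn how far a member's level could be trusted. TPM was lower in replicate 1 for 72 of 83 members (86.7%) and for 82.8% of all 4931 coding genes. Genes without a protein-coding transcript took 77.5% of all TPM in replicate 1 and 60.7% in replicate 2, and the median log2 TPM ratio, replicate 1 over replicate 2, was -0.36 over all coding genes at 5 TPM. Ratios were therefore taken from TMM-scaled estimated counts, which are relative to the typical gene. On that scale the median log2 ratio was 0.08 for the members and 0.05 for all 4931 genes, and the ratio was above 0 for 69.9% of members and 56.1% of all genes.

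Beyond 1.5-fold lay 3 of 83 members (3.61%), against 8.72% of all 4931 genes. All 3 were higher in replicate 1, where the background share was 7.73%, and no member was lower, where it was 0.994%. This contrast depended on the scaling. With TPM centred on the typical gene (pseudocount 0.1), 8 members (9.64%) lay beyond 1.5-fold against 11.0% of all genes, 4 higher in replicate 1 (background 7.75%) and 4 lower (background 3.29%). With a pseudocount of 1 there were 7 members (8.43%) against 9.61%, 4 higher (background 7.10%) and 3 lower (background 2.51%). By the second deposited quantification there were 9 (10.8%) against 11.9%, 5 higher (background 8.70%) and 4 lower (background 3.22%). On these other scales the members' share was thus near that of all genes. The 3 genes beyond 1.5-fold on TMM-scaled counts were Slc2a6, with 10561 and 3593 counts and a ratio of 1.98, the purine nucleoside transporter gene Slc28a2, with 869 and 342 counts and a ratio of 1.71, and Slc37a3, with 1314 and 566 counts and a ratio of 1.56. Next in order came Slc25a22 (1.48) and Slc25a28 (1.47). At the other end, the myo-inositol transporter gene Slc5a3 was 1.44-fold lower in replicate 1, Slc40a1 1.31-fold, Slc35a3 1.31-fold, Slc4a1ap 1.30-fold and the zinc transporter gene Slc39a13 1.29-fold. Starting RNA differed between the libraries too, and its part in these ratios cannot be told apart from the replicate.

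**Figure D3:**
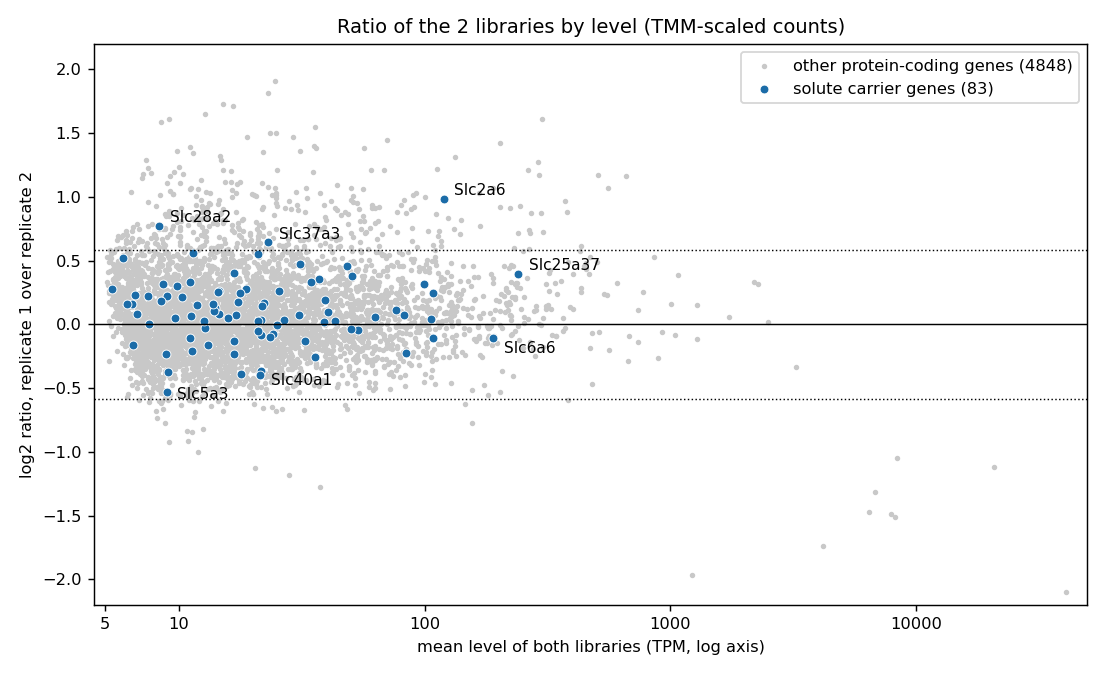
Log2 ratio of TMM-scaled counts, replicate 1 over replicate 2 (vertical axis), against mean level (TPM, log axis) for the 83 solute carrier genes (blue) and the other coding genes at 5 TPM (grey), with 1.5-fold as dotted lines. Slc2a6, Slc28a2 and Slc37a3 lie above the upper line, and on this scale no solute carrier gene lies below the lower one, where centred TPM (pseudocount 0.1) and the second quantification each place 4.

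The rule did not use isoforms, so the transcript composition of the members is a separate measurement. Of the 83 genes 59 had a transcript annotated as retained intron, and the median share of the gene's TPM in such transcripts was 29.1% ± 0.188 (SD of the library medians, 29.5% in replicate 1 and 29.2% in replicate 2). Over the 3500 coding genes at 5 TPM with such a transcript the median was 36.1% ± 1.13. At 50% or more in both libraries were 9 of the 59 (15.3%), beside 23.9% of the 3500. The highest transcript of a gene took a median of 49.2% ± 0.354 of its TPM over 81 members with 2 or more transcripts, beside 47.01% ± 1.71 over 4717 coding genes. It was not a protein-coding one in 18 of 83 members (21.7%), beside 24.9% of all 4931.

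The highest retained-intron shares included the most abundant member. In Slc27a1 the share was 100% in both libraries, since its protein-coding transcripts were listed at 0 TPM. Slc4a7 had 73.3% and 71.1% in replicates 1 and 2, Slc25a37 77.5% and 57.4%, Slc30a9 63.0% and 70.3%, and Slc7a11 64.9% and 64.0%. At the other end, Slc43a2 had 1.68% and 1.98%, Slc9a9 3.997% and 4.644%, and Slc3a2 6.08% and 6.86%. These shares follow the annotated label, which does not mean that a whole intron is kept. Among retained-intron transcripts at 5% or more of their gene's TPM, Slc4a7-213 (18.5% and 18.9%) and Slc30a9-203 (27.3% and 32.3%) held a whole intron. So did Slc25a37-203, while no such transcript of Slc7a11 did. The difference between the libraries in a member's retained-intron share had a median of 5.46 percentage points. By annotated label Slc27a1 stands apart from the next genes by more than this, while the order of Slc4a7, Slc25a37, Slc30a9 and Slc7a11 is not settled. In Slc27a1, however, only Slc27a1-203 (22.4% and 22.1% of the gene's TPM) held whole introns of the coding transcript Slc27a1-201. The leading transcript Slc27a1-205 starts within an intron and keeps none of those that follow.

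**Figure D4:**
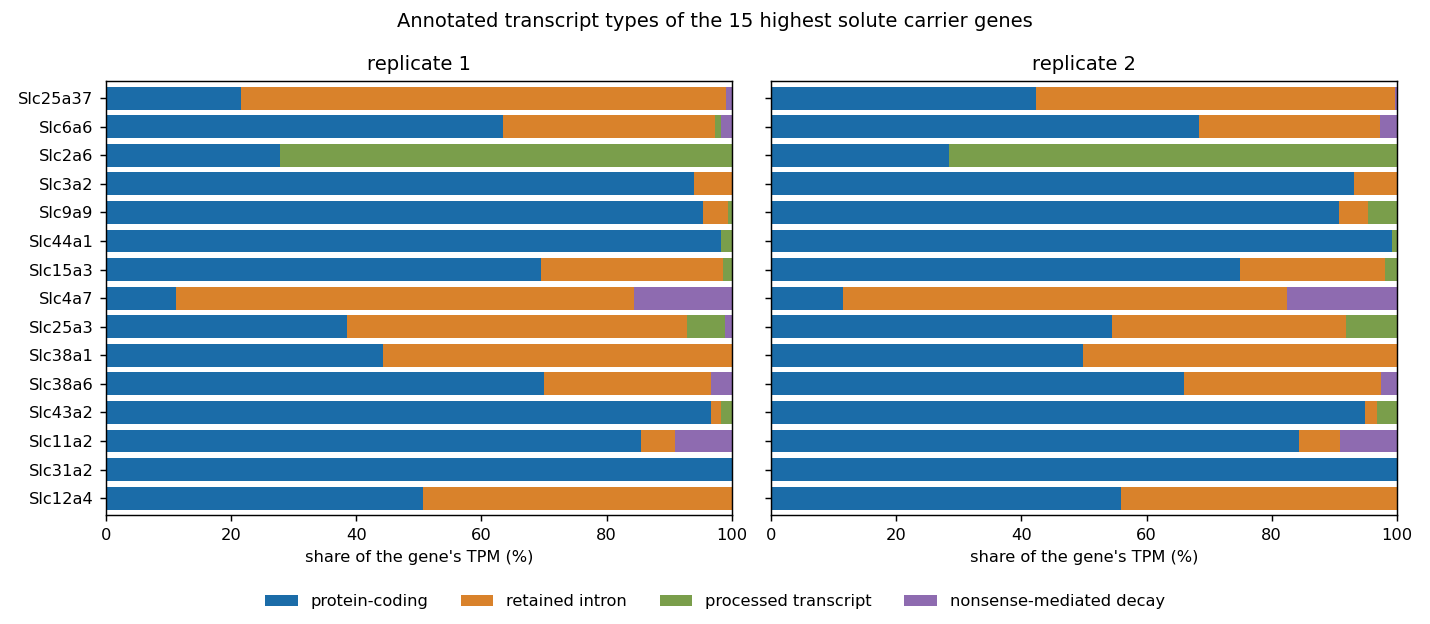
Share of each gene's TPM (%) in protein-coding, retained-intron, processed and nonsense-mediated-decay transcripts, for the 15 highest solute carrier genes, in replicate 1 (left) and replicate 2 (right). The protein-coding share of Slc25a37 is 21.6% and 42.4%, that of Slc2a6 27.8% and 28.4%, and that of Slc44a1 98.3% and 99.2%.

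For 2 of the 3 highest genes the first quantification assigned most of the signal to transcripts that keep an intron. Slc25a37-203 holds the whole second intron of the coding transcript Slc25a37-201 (1756 bases, chr14:69247638-69249393, mm10, minus strand) and took 178 TPM in replicate 1 and 144 TPM in replicate 2, while the coding transcript had 47.7 and 106 TPM. Slc2a6 has no transcript annotated as retained intron, but its processed transcript Slc2a6-205 holds the whole intron 7 of Slc2a6-201 (285 bases, chr2:27023250-27023534, minus strand) and had 58.2 and 43.6 TPM. Another, Slc2a6-203, holds introns 5 and 6 and had 41.8 and 24.8 TPM, while the coding Slc2a6-201 had 37 and 24.8 TPM. The sequences at these introns are printed from the GENCODE M21 transcripts, 15 bases on each side of a boundary. Capitals mark the first or last 2 intron bases and, in the spliced form, the 2 bases that meet. They differ between the named holding and spliced transcripts but do not tell all forms of the gene apart. Slc2a6-203 has the same junction as Slc2a6-201, and the exon-into-intron stretch of Slc25a37-203 also lies in Slc25a37-204.
Slc25a37-203, exon into intron: gccatctagctaatgGTattttgaaagcgt
Slc25a37-203, intron into exon: gagtttgttttgcAGgggtagctgggagta
Slc25a37-201, spliced: gccatctagctaatGGggtagctgggagta
Slc2a6-205, exon into intron: tgctctatgtgtcagGTgagtgtctccact
Slc2a6-205, intron into exon: tgccatgatccacAGcatccgtcatgtttg
Slc2a6-201, spliced: tgctctatgtgtcaGCatccgtcatgtttg

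Both introns begin with GT and end with AG, the usual splice-site bases. Over the members, 111 retained-intron transcripts of 56 genes took at least 5% of their gene's TPM. Of these, 34 transcripts from 26 genes held a whole intron of the gene's leading coding transcript, and 75 only reached into one. The same was not counted over all coding genes, so these numbers are not a result about the members. The whole introns were 65 to 2412 bases long. Slc25a28 likewise had introns 2 and 3 whole in Slc25a28-202, which took 48.7% and 45.9% of the gene's TPM in replicates 1 and 2, and it had a protein-coding share of only 3.53% and 3.40%. In Slc15a3, introns 6 and 7 were whole in Slc15a3-203, which took 28.96% and 23.07% of the gene's TPM.

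The assignment of reads to a gene is less certain for some members. Words of 31 bases were compared between the transcripts of each member and those of all other genes, on either strand, and 9 members shared over 20% of their words, while 56 shared under 5%. Slc28a2, 1 of the 3 genes beyond 1.5-fold, shared 46.3% with Gm14085, which was at 0.10 and 0.11 TPM. Slc39a7 shared 76.8% with Gm20427, Slc25a5 49.4% with 13 other genes, Slc38a6 31.3% with Noct, at 328 and 401 TPM, and Slc15a3 27.3% with Tmem132a on the opposite strand, at 43.6 and 82.5 TPM. Slc2a6 and Slc9a9 shared none. A gene that itself passed 5 TPM overlapped 14 members, for 13 of them on the opposite strand. Within Slc25a37 lies Gm20236, on the same strand, at 49.7 and 101 TPM. Strand cannot separate that pair, and Slc25a37 shared 7.72% of its words with other genes. The sources used here do not state whether counting used strand, so reads of pairs on opposite strands may not be told apart.

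The second deposited quantification placed 78 of the 83 genes at or above the minimum, with a Spearman correlation of 0.90 with the first over the 83 genes, which share the same reads. It gave over 1.5-fold more for 9 genes and over 1.5-fold less for 18. Its values were lower in general, with a median ratio of second over first of 0.83 for the members and 0.86 for all 4931 coding genes. The share of all coding genes beyond 1.5-fold was not counted, so the 9 and 18 are not a result about the members. Slc25a17, a peroxisomal carrier gene, was 2.65-fold higher in it, Slc7a7 2.21-fold, Slc16a6 1.87-fold and Slc38a6 1.83-fold. In Slc25a17 it placed 41.7% of the gene's TPM in a transcript of 211 bases that the first listed at 0. Slc25a37 stayed the highest member, at 208 TPM, with Slc25a37-203 again its leading transcript. The mean retained-intron share of Slc25a37 was lower in it, at 50.2% against 67.4% in the first. The leading transcript was the same in both quantifications for 47 of 83 members (56.6%), beside 59.5% of all 4931 genes.

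**Figure D5:**
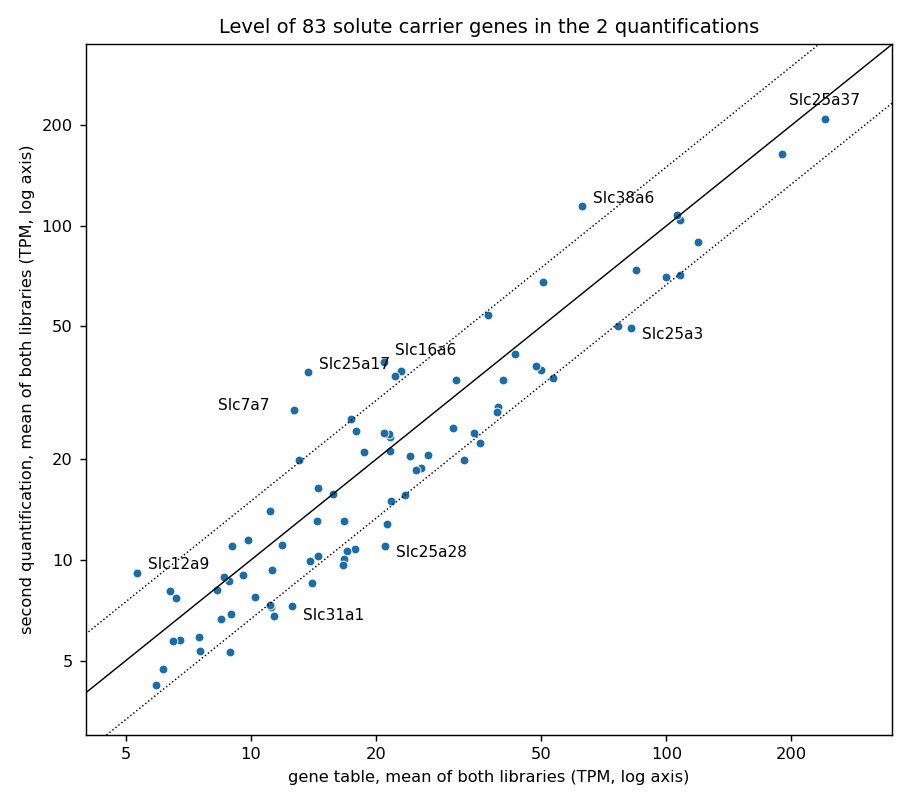
Mean level of both libraries in the second quantification (TPM, log axis) against that in the gene table (TPM, log axis) for the 83 genes, with equality as a solid line and 1.5-fold as dotted lines. Slc25a17, Slc7a7, Slc16a6 and Slc38a6 lie above the upper dotted line and Slc25a28 is among the genes below the lower one.

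By position, the members lay on 20 chromosomes, and 3 pairs of neighbouring members were within 200000 bases of each other, Slc31a2 with Slc31a1, Slc38a1 with Slc38a2, and Slc35b2 with Slc29a1. The median gene span was 29152 bases, beside 28061 bases over all 4931 genes.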

How the data were processed

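Per the labels, RNA was ribosomal-RNA-depleted and sequenced from the nucleoplasmic fraction, with assembly mm10. The authors deposited, per library, a gene and a transcript table of estimated counts, TPM and FPKM, and a second transcript table of estimated counts and TPM. Per the deposited notes, both used GENCODE M21 transcripts, and the first came from a transcriptome alignment. No label or header names the programs that made these tables. The deposited TPM interval bounds (signal) entered no printed value. Gene and transcript types came from GENCODE M21.

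Computed here, in Python 3.11.15 (numpy 2.4.6, pandas 2.3.3, matplotlib 3.10.9) and R 4.3.3: means and SDs over 2 libraries, isoform shares as percent of a gene's TPM, and library ratios from rounded estimated counts with edgeR 4.0.16 (filterByExpr, TMM, prior count 2). DESeq2 1.42.0 gave alternative size factors. The ratio calculation was run on simulated libraries with equal means, apart from a set of genes changed by known folds. Those libraries lacked the shift in composition seen here, so that run does not bear on the choice of scaling. With 1 group, no p-value is given. At 1 TPM, coding genes had a median of 72 and 31 counts, and counting error was not given an interval, since each level has 2 libraries. Members, substrate classes and gene lists were chosen with earlier results of these data known. Named genes were the 15 highest, the 3 highest per class and list, the extreme ratios (mean count 200 or more) and retained-intron shares, the genes at the minimum and the listed macrophage carriers. Other named genes were chosen after their values were seen. Alternatives changed the quantification, unit, minimum, scaling, prior count, pseudocount and fold, or left out a library. Values of 1 member and of 1 marker gene are not reported here.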

Additional observations from a re-analysis of the deposited data

How the results depend on the processing

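Over 5 results and 35 alternative settings, 19 left the value within its tolerance and 16 moved it. For a count the tolerance was a factor of 1.5, and for a median 1 SD of the 2 library medians, which is narrow for the isoform shares. The number of members was 102 by FPKM and 62 at 10 TPM, within tolerance, 153 at a minimum of 1 TPM, and between 86 and 100 with a single library. The median level was 23.7 as FPKM, 61.0 with TPM rescaled to coding genes, 6.77 at a minimum of 1 TPM and 22.6 at 10 TPM, and 16 to 20.6 with a single library. The number beyond 1.5-fold was 8 and 7 with centred TPM (pseudocounts 0.1 and 1), 9 by the second quantification, and 0 at 2-fold. Of the 8, 7 and 9, in that order, 4 and 4, 4 and 3, and 5 and 4 were higher and lower in replicate 1, against 3 and 0, and the shares of all coding genes were 11.0%, 9.61% and 11.9%. Slc2a6, Slc28a2 and Slc37a3 were among them each time, except at 2-fold. The median retained-intron share was 36.3% by the second quantification (39.7% over all coding genes at 5 TPM), 19.3% on estimated counts (22.6%), and 29.2% to 29.5% with a single library. The median main-isoform share was 40.2% by the second quantification (38.6%), 66.1% on counts (61.9%), 48.8% at 10 TPM, and 48.7% to 49.2% with a single library. The cause of these moves was not tested. Leaving out the 3 genes that encode no carrier, an alternative chosen after seeing the data, left all 5 results within tolerance. No paired analysis was possible because there is only 1 group. With 2 libraries, SDs are imprecise, and low members rest on as few as 137 counts.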

Other observations

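Of the 18 carriers typical of other tissues, Slc10a1, the bile acid importer gene of liver, had 2.18 TPM in replicate 1 and 4.35 TPM in replicate 2, with 102 and 106 counts. The other 17 each had at most 4 counts in a library. By the second deposited quantification Slc10a1 had 2.71 and 5.55 TPM, and 3 genes with a count of 0 in the first were above 1 TPM in a library, Slc10a2 at 2.45 and 8.53 TPM, Slco1b2 at 2.11 and 4.22 TPM and Slc30a8 at 0.43 and 2.71 TPM. Slc25a1, the mitochondrial citrate carrier gene, had a retained-intron share of 43.4% in replicate 1 and 1.20% in replicate 2, with 316 and 187 counts in the gene.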
